A study of Mus musculus with 45 samples.

Results

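Glycolysis and the pentose phosphate pathway were followed step by step through a list of 34 genes that runs from glucose import to lactate export, with the branch that makes NADPH and ribose. Members were taken by gene symbol from the deposited CPM table, which held 33 of them, and *Fbp1* was added by its Ensembl identifier from the count table, so that 34 of the 29307 genes in that table belong to the list. The RNA came from bone marrow-derived macrophages of C57BL/6N mice aged 6 to 10 weeks that carried *Famin* p254I, *Famin* p254V or *Famin* p284R, 5 mice each. *Famin*, listed as *Lacc1*, encodes a purine enzyme, and the lines are engineered at this gene to carry variants known from people, of which p254I is the non-risk form, p254V a disease risk form and p284R the form of a monogenic disease. All mice carried the variant in the germline, and no unedited mice were among these libraries. Cells were grown with M-CSF for 6 days and then left unstimulated (M0) or polarized over 24 h, either with 50 ng/mL IFN-γ plus 20 ng/mL LPS (M1) or with 20 ng/mL IL-4 (M2), which made 45 libraries in 9 groups of 5. The 3 cultures that share a genotype and a replicate number in the labels were counted as 1 mouse. The main tests of genes and of shares between polarizations had no term for the mouse, so that cultures of 1 mouse entered them as separate samples, and p-values measure the spread between these cultures.

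Glycolysis splits glucose into pyruvate in the cytosol, and lactate dehydrogenase turns pyruvate into lactate while restoring NAD+. Its early committed steps, hexokinase and phosphofructokinase, exist as several isoenzymes from separate genes. The pentose phosphate pathway leaves at glucose 6-phosphate, where its oxidative arm makes NADPH and its non-oxidative arm exchanges sugars with glycolysis. Macrophages activated with IFN-γ and LPS are known for high glycolysis, and HIF-1α is a transcription factor that raises many glycolytic genes.

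Total counts per library lay between 17239009 and 43740283 with a median of 27553642. Levels are given as CPM, counts scaled to a common library size after TMM, and levels of different genes are compared only as CPM per kb of annotated exon. Summed markers went with the labels. The macrophage list (*Cd68*, *Adgre1*, *Csf1r*, *Itgam*, *Lyz2*, *Mertk*) had 19240 to 32840 CPM in M0, 10040 to 13780 in M1 and 9532 to 13790 in M2. Its M0 range thus lay above those of M1 and M2. The M1 list (*Nos2*, *Cxcl9*, *Cxcl10*, *Il12b*, *Il1b*) had 1309 to 6651 CPM in M1 against at most 25.7 elsewhere. The M2 list (*Arg1*, *Chil3*, *Retnla*, *Mrc1*, *Ccl24*) had 4453 to 14210.0 CPM in M2 against at most 914 elsewhere. T cell, B cell and erythroid lists summed to at most 0.487 CPM in any library, dendritic cell markers to at most 12.7 CPM, and none of the markers listed was at 0 in all libraries. Neutrophil markers (6 of 6 found) summed to 19.4 to 204 CPM in M0, 29.3 to 97.0 in M1 and 13 to 58.9 in M2. Fibroblast markers (3 of 3, *Col1a1*, *Col1a2*, *Pdgfra*) summed to 15.4 to 83.5 CPM in M0, 5.94 to 19.1 in M1 and 8.6 to 29.5 in M2. The cycling markers (2 of 2, *Mki67* and *Top2a*) summed to 123 to 269 CPM in M0, 61.8 to 226 in M1 and 47.0 to 135 in M2, and the part that these cells play in the results was not tested. The M1 library of *Famin* p254I replicate 5 had 40.8 CPM of *Arg1*, where every other M1 library had at most 0.912, and the counts of members called without that mouse are within the ranges given in the closing section.

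In M1 against M0, most of the list rose, led by the hexokinase *Hk3* and the platelet-type phosphofructokinase *Pfkp*, which were 4.32-fold and 4.29-fold higher. A gene was called when edgeR's quasi-likelihood test gave a Benjamini-Hochberg adjusted p under 0.05 over the 12905 genes tested. Of the 33 members tested, 29 were called, 25 of them higher and 4 lower. Among all genes tested, 37.0% were called higher and 40.3% lower in that comparison. With a fold change of 2 or more, 8 members were higher (*Hk3*, *Pfkp*, *Slc2a6*, *Hif1a*, *Pfkfb3*, *Hk1*, *Pfkm*, *Hk2*) and 1 was lower (*Ldhb*), against 8.30% and 13.3% of all genes. The median log2 fold change of the members was 0.63 and that of all genes -0.03. For 16 members every M1 library lay above every M0 library, and for 0 below, where 15.2% and 13.5% of all genes did so. *Aldoc*, *Pgm1*, *Rpia* and *Slc16a1* were not called. In bulk RNA, fewer cells of a type and less RNA per cell cannot be told apart.

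In M2 against M0, 31 members were called, 24 higher and 7 lower, where 36.8% and 39.6% of all genes were called. With a fold change of 2 or more, 4 members were higher (*Hk2*, *Pfkp*, *Slc16a1*, *Slc2a1*) and 1 was lower (*Aldoc*), against 6.18% and 10.3% of all genes. The median log2 fold change was 0.53 for the members and -0.03 for all genes. For 14 members every M2 library lay above every M0 library and for 2 below (*Pfkm* and *Aldoc*), against 13.6% and 9.78% of all genes. *Pfkl* and *Ldhb* were not called. Both comparisons share the M0 libraries.

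Set directly against each other, M1 and M2 differed in 28 of 33 members, 14 higher in M1 and 14 higher in M2, against 39.0% higher and 40.1% lower in M1 among all genes. Higher in M1 by 2-fold or more were *Pfkm*, *Pfkfb3*, *Hk1*, *Hif1a*, *Hk3* and *Slc16a3*, and higher in M2 were *Ldhb* and *Slc16a1*, where 11.6% and 13.0% of all genes passed that limit. For 11 members all M1 libraries exceeded all M2 libraries and for 3 the reverse held (*Pfkfb4*, *Rpia*, *Tkt*), against 17.6% and 18.1% of all genes. The counts of the 34 members together made up a median of 0.614% of all counts in M0 (lowest 0.557%, highest 0.703%), 0.957% in M1 (0.892% to 1.12%) and 0.822% in M2 (0.767% to 0.946%). The M0 and M1 ranges did not overlap, nor did M0 and M2. Members with many counts weigh most in this sum. *Hk3* alone averaged 473 CPM in M0, 2045 CPM in M1 and 803 CPM in M2, and the sum without it was not computed.

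**Figure D1:**
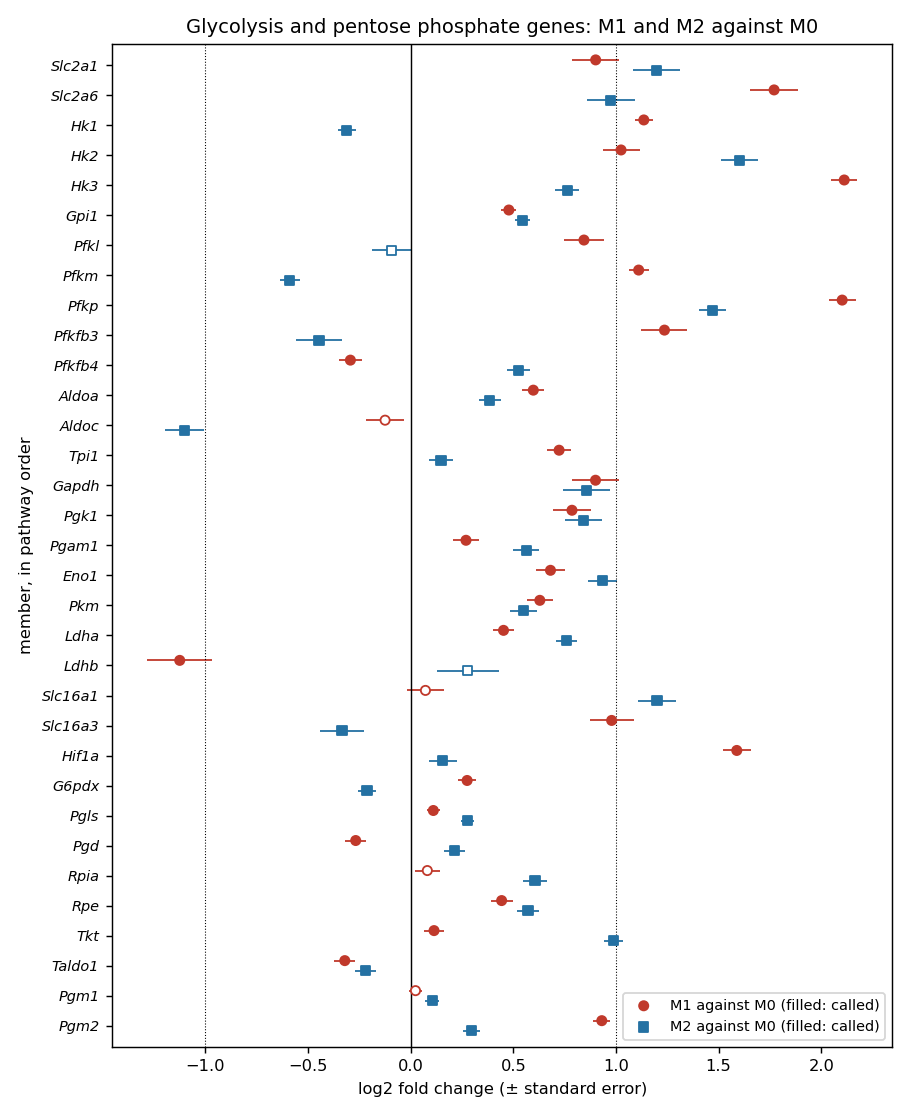
Log2 fold change of the 33 tested members in M1 (circles) and M2 (squares) against M0, in pathway order, with the standard error of edgeR's fit as bars, filled symbols for called members and dotted lines at 2-fold. Most symbols lie right of 0, and of the members called in both, *Hk1*, *Pfkm*, *Pfkfb3*, *Slc16a3* and *G6pdx* lie right in M1 and left in M2, and *Pfkfb4* and *Pgd* left in M1 and right in M2.

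The 250 bases before the start sites of the members were read from RefSeq promoters (GRCm38.p6, the assembly of mm10), which held 47 start-site windows of 300 bases (250 before to 50 after the start) for all 34 members. The letters searched on both strands were ACGTG and GCGTG, the core of the site that HIF binds. ACGTG lies within the palindrome CACGTG, which therefore counts on both strands. ACGTG occurred in 22 of the 47 windows (46.8%) against 19.6% of 32851 windows of all genes, and GCGTG in 26 (55.3%) against 32.4%. At least 1 of the HIF cores was present in 38 windows (80.9%) against 43.8% of all windows. Some windows of the same gene overlap, as for *Aldoa*, *Eno1* and *Pfkm*, so that 1 match can count more than once. Counted by gene, 30 of the 34 members held a core in a window, against 46.7% of 27025 genes. Member windows also held more CpG dinucleotides, with a median of 20 against 7. A match shows the letters, not binding. The stretches of 250 bases before the start are shown for *Hk3*, *Pfkp* and *Slc2a6*, the members that rose most in M1, and for *Slc16a1*, which rose in M2 and not in M1, with matches to either core in capitals.
Hk3, chr13:55021386-55021635, minus strand: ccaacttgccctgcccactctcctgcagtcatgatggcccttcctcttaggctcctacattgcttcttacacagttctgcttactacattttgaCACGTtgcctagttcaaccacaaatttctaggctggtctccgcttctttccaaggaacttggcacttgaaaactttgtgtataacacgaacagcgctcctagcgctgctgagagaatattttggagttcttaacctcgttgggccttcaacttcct
Pfkp, chr13:6648772-6649021, minus strand: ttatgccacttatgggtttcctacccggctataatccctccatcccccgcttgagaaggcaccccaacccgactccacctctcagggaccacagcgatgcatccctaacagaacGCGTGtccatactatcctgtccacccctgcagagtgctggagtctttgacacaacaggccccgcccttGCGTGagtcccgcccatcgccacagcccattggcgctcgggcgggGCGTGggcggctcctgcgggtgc
Slc2a6, chr2:27027999-27028248, minus strand: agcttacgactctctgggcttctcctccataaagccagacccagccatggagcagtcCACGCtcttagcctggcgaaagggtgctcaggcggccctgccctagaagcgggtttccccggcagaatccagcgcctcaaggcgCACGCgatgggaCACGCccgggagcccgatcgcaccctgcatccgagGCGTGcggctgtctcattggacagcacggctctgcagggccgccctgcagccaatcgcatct
Slc16a1, chr3:104638414-104638663, plus strand: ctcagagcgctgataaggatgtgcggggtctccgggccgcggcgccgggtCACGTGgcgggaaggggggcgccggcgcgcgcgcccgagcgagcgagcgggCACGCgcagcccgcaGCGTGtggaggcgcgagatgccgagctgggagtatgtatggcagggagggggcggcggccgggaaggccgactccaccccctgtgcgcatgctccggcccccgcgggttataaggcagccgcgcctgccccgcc
*Hk3* held 1 ACGTG (read on the opposite strand) and no GCGTG. *Pfkp* and *Slc2a6* held GCGTG and no ACGTG, and *Slc16a1* held both cores.

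Glucose enters macrophages mainly through the transporter encoded by *Slc2a1* (GLUT1). The 15 M0 libraries had 22.6, 44.0 and 53.4 CPM of *Slc2a1* (lowest, median and highest), those of M1 49.5, 74.3 and 126 CPM and those of M2 71.3, 89.8 and 130.02 CPM. All 15 M2 libraries lay above all M0 libraries, and M1 overlapped with both. *Slc2a1* had a log2 fold change of 0.90 (adjusted p = 4.44e-09, SE 0.12) in M1 and 1.20 (adjusted p = 5.02e-12, SE 0.12) in M2 (edgeR over all genes, adjusted by Benjamini-Hochberg, as for every log2 fold change that follows). By genotype its means in *Famin* p254I, p254V and p284R were 39.1 ± 11.3, 42.9 ± 10.6 and 43.1 ± 4.37 CPM (SD, n = 5) in M0, 69.6 ± 13.3, 72.9 ± 14.2 and 93.1 ± 28.3 CPM in M1 and 100.4 ± 18.0, 86.3 ± 8.99 and 101 ± 22.7 CPM in M2. *Slc2a6* (ENSMUSG00000036067, chr2:27021363-27027998 on the minus strand, mm10) encodes GLUT6, a relative found inside the cell. *Slc2a6* had a lowest, median and highest level of 19.3, 25.2 and 37.0 CPM in the 15 M0 libraries, 48.0, 74.8 and 183 CPM in M1 and 39.4, 48.7 and 65.7 CPM in M2. No M1 or M2 library overlapped with M0, and every mouse had more in M1 than in M2. *Slc2a6* had a log2 fold change of 1.77 (adjusted p = 7.15e-17, SE 0.12) in M1 and 0.97 (adjusted p = 1.28e-09, SE 0.12) in M2. Per kb of exon, the pair summed to 19.96 ± 2.63 CPM per kb in M0, 50.9 ± 17.2 in M1 and 43.2 ± 4.77 in M2 (SD, n = 15). *Slc2a6* made up 40.8% ± 7.94 in M0, 55.0% ± 5.93 in M1 and 37.0% ± 6.45 in M2 (SD, n = 15). The share rose by 14.3 percentage points in M1 (permutation test, 100000 resamples, two-sided, p = 2e-05, the smallest they can give, and 2.48e-05 after Benjamini-Hochberg adjustment over the 36 share tests). In M2 the share of *Slc2a6* differed by -3.74 points (permutation p = 0.166, adjusted 0.166), a difference within the spread of the libraries.

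**Figure D2:**
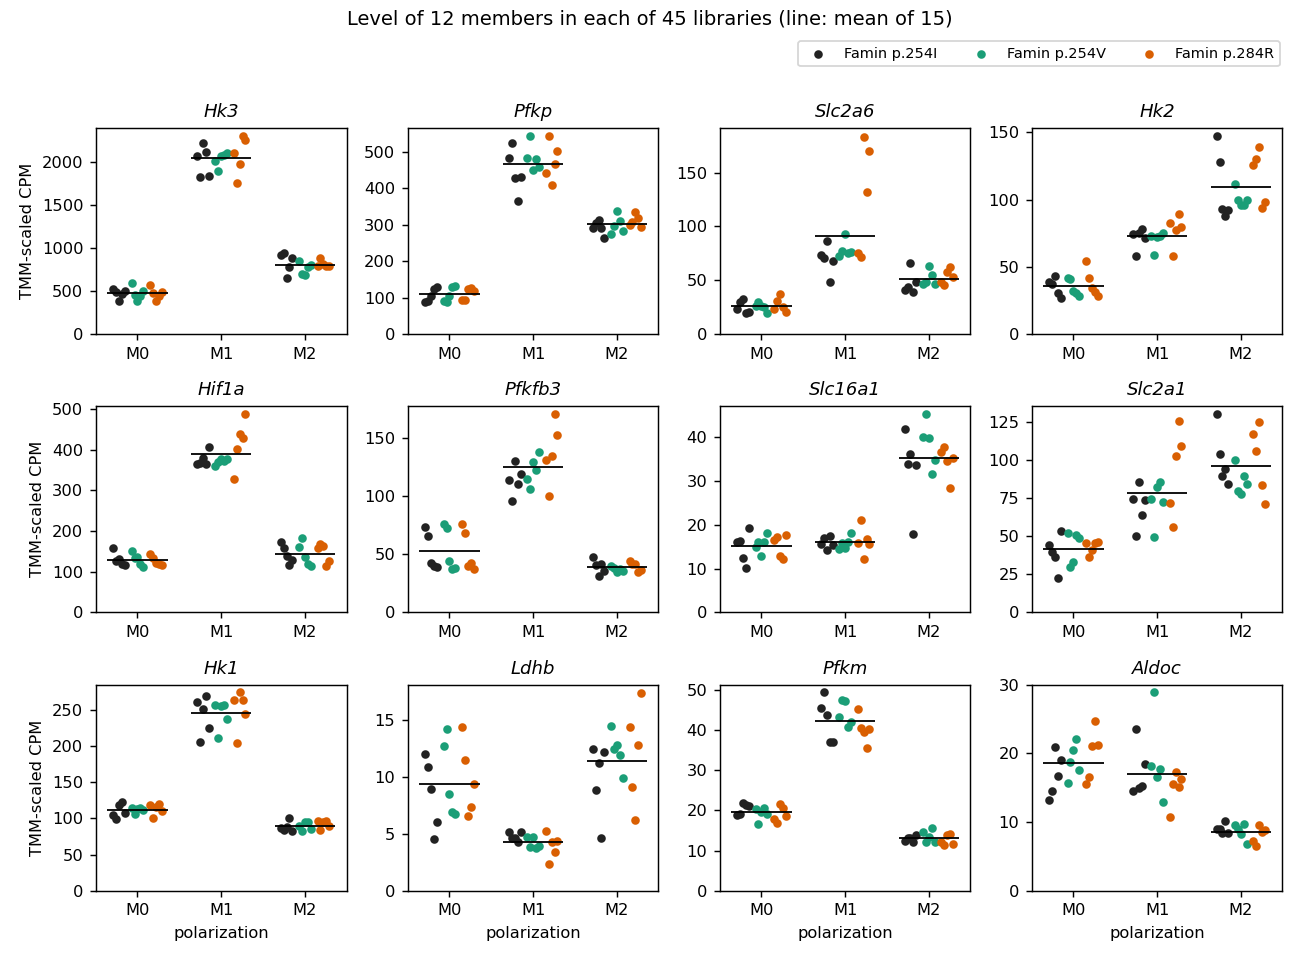
TMM-scaled CPM of the 12 members called at 2-fold or more in M1 or M2 against M0, each point 1 library, coloured by *Famin* genotype, with a line at the mean of 15 libraries and all axes starting at 0. The M1 points of *Hk3* all lie above 941 CPM, the highest M2 value, and its M0 points at or below 590.2 CPM, *Slc16a1* stands high in M2 and not in M1, and 3 M1 libraries of p284R stand above the rest for *Slc2a6*.

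Hexokinase traps glucose in the cell as glucose 6-phosphate. *Hk3* (ENSMUSG00000025877, chr13:55005985-55021385 on the minus strand, mm10), an isoenzyme known from myeloid cells, was the most abundant of the 3 genes and in M1 rose most. *Hk3* had a lowest, median and highest level of 379, 481 and 590.2 CPM in the 15 M0 libraries, 1763, 2074 and 2304 CPM in M1 and 649, 787 and 941 CPM in M2. The 3 ranges were separate, with M2 between M0 and M1. *Hk3* had a log2 fold change of 2.11 (adjusted p = 4.58e-29, SE 0.06) in M1 and 0.76 (adjusted p = 1.28e-14, SE 0.06) in M2. The genotype means of *Hk3* in *Famin* p254I, p254V and p284R were 473 ± 56.2, 473 ± 78.0 and 473 ± 69.1 CPM (SD, n = 5) in M0, 2015 ± 175, 2036 ± 84.4 and 2082 ± 219 CPM in M1 and 833 ± 119.8, 763 ± 69.7 and 812 ± 44.0 CPM in M2.

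*Hk1*, the broadly expressed isoenzyme that binds mitochondria, moved up in M1 and down in M2. The 15 M0 libraries had 99.4, 113 and 122 CPM of *Hk1* (lowest, median and highest), those of M1 204, 255 and 275 CPM and those of M2 82.0, 88.9 and 101 CPM. M1 libraries were all above the rest, and M2 and M0 overlapped at the edge although *Hk1* was lower in M2 in all 15 mice. *Hk1* had a log2 fold change of 1.14 (adjusted p = 4.79e-25, SE 0.04) in M1 and -0.31 (adjusted p = 3.40e-08, SE 0.04) in M2. *Hk2*, the inducible isoenzyme, rose most in M2. *Hk2* had a lowest, median and highest level of 27.0, 34.1 and 54.4 CPM in the 15 M0 libraries, 58.1, 74.2 and 89.6 CPM in M1 and 87.8, 99.4 and 147 CPM in M2. Neither polarized group overlapped with M0, and *Hk2* was higher in M2 than in M1 in 15 of 15 mice. *Hk2* had a log2 fold change of 1.02 (adjusted p = 2.48e-13, SE 0.09) in M1, 1.60 (adjusted p = 7.05e-19, SE 0.09) in M2 and -0.58 (adjusted p = 2.09e-07, SE 0.09) in M1 against M2. Within genotypes (p254I, p254V, p284R) *Hk1* averaged 110.2 ± 9.52, 111 ± 3.38 and 113 ± 7.95 CPM (SD, n = 5) in M0, 242 ± 26.3, 243 ± 20.2 and 249.8 ± 27.7 CPM in M1 and 88.3 ± 7.29, 89.1 ± 5.81 and 92.0 ± 5.52 CPM in M2. *Hk2* averaged 35.3 ± 6.56, 34.7 ± 6.21 and 37.9 ± 10.5 CPM in M0, 71.5 ± 7.89, 70.6 ± 6.61 and 77.4 ± 11.8 CPM in M1 and 109.7 ± 26.5, 100.5 ± 6.44 and 117 ± 20.4 CPM in M2 in the same order.

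Summed per kb, the hexokinases had 148 ± 17.5 CPM per kb in M0, 596 ± 46.5 in M1 and 247 ± 24.6 in M2 (SD, n = 15). *Hk3* held 86.9% ± 1.75 in M0, 93.1% ± 0.409 in M1 and 88.3% ± 1.05 in M2 of that sum, *Hk1* 8.99% ± 1.33 in M0, 4.82% ± 0.314 in M1 and 4.31% ± 0.577 in M2, and *Hk2* 4.11% ± 0.817 in M0, 2.05% ± 0.142 in M1 and 7.4% ± 0.949 in M2. The share of *Hk2* differed in opposite directions, by -2.05 points in M1 and 3.29 points in M2 (permutation test, p = 2e-05 each, 2.48e-05 adjusted). The share of *Hk1* depends on the length used and was 16% in M0, 8.91% in M1 and 8.04% in M2 with the length that no other gene shares. In M1 the level of *Hk2* rose while its share fell, and *Hk3* rose by more.

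*Gpi1* encodes the isomerase that makes fructose 6-phosphate, the branch point back from the pentose phosphate pathway. *Gpi1* had a lowest, median and highest level of 314, 330.0 and 376 CPM in the 15 M0 libraries, 419.6, 475 and 528 CPM in M1 and 448, 504 and 533 CPM in M2. The M0 libraries lay below all others. *Gpi1* had a log2 fold change of 0.48 (adjusted p = 4.37e-15, SE 0.04) in M1 and 0.54 (adjusted p = 1.44e-16, SE 0.04) in M2.

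Phosphofructokinase commits the sugar to glycolysis, and its 3 genes separated by polarization. *Pfkp* (ENSMUSG00000021196, chr13:6579768-6648777 on the minus strand, mm10) encodes the platelet type. The 15 M0 libraries had 87.3, 105 and 132 CPM of *Pfkp* (lowest, median and highest), those of M1 363, 466 and 542 CPM and those of M2 263, 299.7 and 336 CPM. The 3 groups did not overlap. *Pfkp* had a log2 fold change of 2.10 (adjusted p = 5.58e-28, SE 0.07) in M1 and 1.47 (adjusted p = 1.92e-22, SE 0.07) in M2. *Pfkm*, the muscle type, showed the opposite sign in the polarized groups. *Pfkm* had a lowest, median and highest level of 16.6, 19.7 and 22 CPM in the 15 M0 libraries, 35.6, 42.1 and 49.4 CPM in M1 and 11.3, 13.1 and 15.7 CPM in M2. All M1 libraries lay above and all M2 libraries below the M0 range. *Pfkm* had a log2 fold change of 1.11 (adjusted p = 4.36e-23, SE 0.05) in M1 and -0.59 (adjusted p = 1.01e-13, SE 0.05) in M2. *Pfkl*, the liver type, had 38.0, 47.5 and 56.7 CPM (lowest, median and highest) in M0, 63.0, 80.8 and 130.3 CPM in M1 and 31.0, 41.5 and 64.0 CPM in M2. It was above the M0 range in every M1 library, with a log2 fold change of 0.84 (adjusted p = 3.44e-10, SE 0.10), and was not called in M2 (-0.09, adjusted p = 0.391, SE 0.10).

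Genotype means (p254I, p254V, p284R) of *Pfkp* were 108 ± 18.3, 108 ± 20.9 and 111 ± 16.5 CPM (SD, n = 5) in M0, 446 ± 60.8, 482 ± 36.8 and 472 ± 52.0 CPM in M1 and 292 ± 18.5, 299 ± 24.5 and 311 ± 16 CPM in M2. Those of *Pfkm* were 20.4 ± 1.43, 19.2 ± 1.60 and 19.1 ± 2.01 CPM in M0, 42.5 ± 5.44, 44.2 ± 3.05 and 40.2 ± 3.39 CPM in M1 and 12.9 ± 0.693, 13.6 ± 1.58 and 12.6 ± 1.27 CPM in M2. Per kb, the family summed to 21.0 ± 2.02 CPM per kb in M0, 60.1 ± 4.80 in M1 and 32.9 ± 2.44 in M2 (SD, n = 15). *Pfkp* held 38.5% ± 3.79 in M0, 57.8% ± 3.27 in M1 and 68.2% ± 3.12 in M2, *Pfkm* 28.0% ± 1.67 in M0, 21.1% ± 2.08 in M1 and 11.9% ± 1.21 in M2, and *Pfkl* 33.5% ± 3.68 in M0, 21.0% ± 4.13 in M1 and 19.9% ± 3.38 in M2. The 6 shares all differed from M0 (permutation test, p = 2e-05 each, 2.48e-05 adjusted), toward *Pfkp* in both polarized groups. The annotated exons of *Pfkp* add up to 13401 bases, and its share per kb depends on the length used. With the unshared runs of 1 coding transcript as the length, *Pfkp* held 57.1% in M0, 74.8% in M1 and 81.5% in M2. *Pfkm* then held 15% in M0, 9.88% in M1 and 5.13% in M2. Of *Pfkp*, 0 of the 4096 runs were shared, so that its length here was that of 1 transcript. Exons of *Pfkp* overlap with *Pitrm1* and those of *Pfkm* with *Senp1* on the opposite strand, as do those of *Hk1* with *Hk1os*, *Hk3* with *Unc5a*, *Slc2a1* with *Gm12868* and *Hif1a* with *Gm15283*. The library kit keeps strand, but whether the counting used it is not stated.

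The bifunctional PFKFB enzymes set the level of fructose 2,6-bisphosphate, the activator of phosphofructokinase. *Pfkfb3*, whose enzyme strongly favours making the activator, rose in M1. *Pfkfb3* had a lowest, median and highest level of 37.2, 42.1 and 75.8 CPM in the 15 M0 libraries, 95.4, 122 and 169.9 CPM in M1 and 31.2, 38.1 and 47.4 CPM in M2. Its M1 libraries lay above all others. *Pfkfb3* had a log2 fold change of 1.24 (adjusted p = 6.39e-13, SE 0.11) in M1 and -0.45 (adjusted p = 4.93e-04, SE 0.11) in M2. The M0 libraries fell into separate levels that followed the replicate number. *Pfkfb3* had 73.1, 65.9, 42.1, 39.9 and 39.2 CPM in replicates 1 to 5 of *Famin* p254I, 75.7, 72.3, 44.0, 37.2 and 37.7 CPM in p254V and 75.8, 67.8, 39.5, 41.9 and 37.2 CPM in p284R. Replicates 1 and 2 were the high ones in each genotype, and the sources used here do not say what the replicate number marks. In M2, *Pfkfb3* had 47.4, 40.4, 31.2, 41.5 and 35.4 CPM in p254I, 40.2, 38.1, 34.5, 37.2 and 35.6 CPM in p254V and 44.4, 41.6, 41.1, 34.4 and 36.5 CPM in p284R, so that replicates 1 and 2 were lower than in M0 in each genotype, while the M0 and M2 ranges of replicates 3 to 5 overlapped. In M1 its genotype means were 114 ± 12.6, 122 ± 12.2 and 137 ± 26.2 CPM (SD, n = 5) in the same order of genotypes, and in M2 39.2 ± 6.16, 37.1 ± 2.20 and 39.6 ± 4.06 CPM.

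*Pfkfb4* moved the other way. The 15 M0 libraries had 73.1, 90.6 and 107 CPM of *Pfkfb4* (lowest, median and highest), those of M1 61.8, 75 and 84.7 CPM and those of M2 102, 129.8 and 162 CPM. It was lower in M1 and higher in M2 than in M0 in all 15 mice, and the M1 and M2 ranges did not overlap. *Pfkfb4* had a log2 fold change of -0.29 (adjusted p = 1.34e-05, SE 0.06) in M1 and 0.52 (adjusted p = 7.80e-11, SE 0.06) in M2. By genotype it had 89.8 ± 11.3, 91.1 ± 10.5 and 91.6 ± 5.94 CPM (SD, n = 5) in M0, 73.5 ± 5.91, 78.8 ± 4.51 and 70.2 ± 5.93 CPM in M1 and 123 ± 16.4, 139 ± 15.1 and 131 ± 21.6 CPM in M2. The sum of the pair per kb was 25.6 ± 2.95 CPM per kb in M0, 31.7 ± 2.44 in M1 and 31.9 ± 3.31 in M2 (SD, n = 15). Within it *Pfkfb3* held 26.8% ± 6.06 in M0, 51.7% ± 4.92 in M1 and 16.3% ± 3.10 in M2 (permutation test against M0, p = 2e-05 and 2.48e-05 adjusted in both). The share of *Pfkfb3* in M1 depends on the length used, from that value with annotated exons to 72.4% with the unshared runs of 1 coding transcript. Neither gene of the pair had a shared run in the search.

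**Figure D3:**
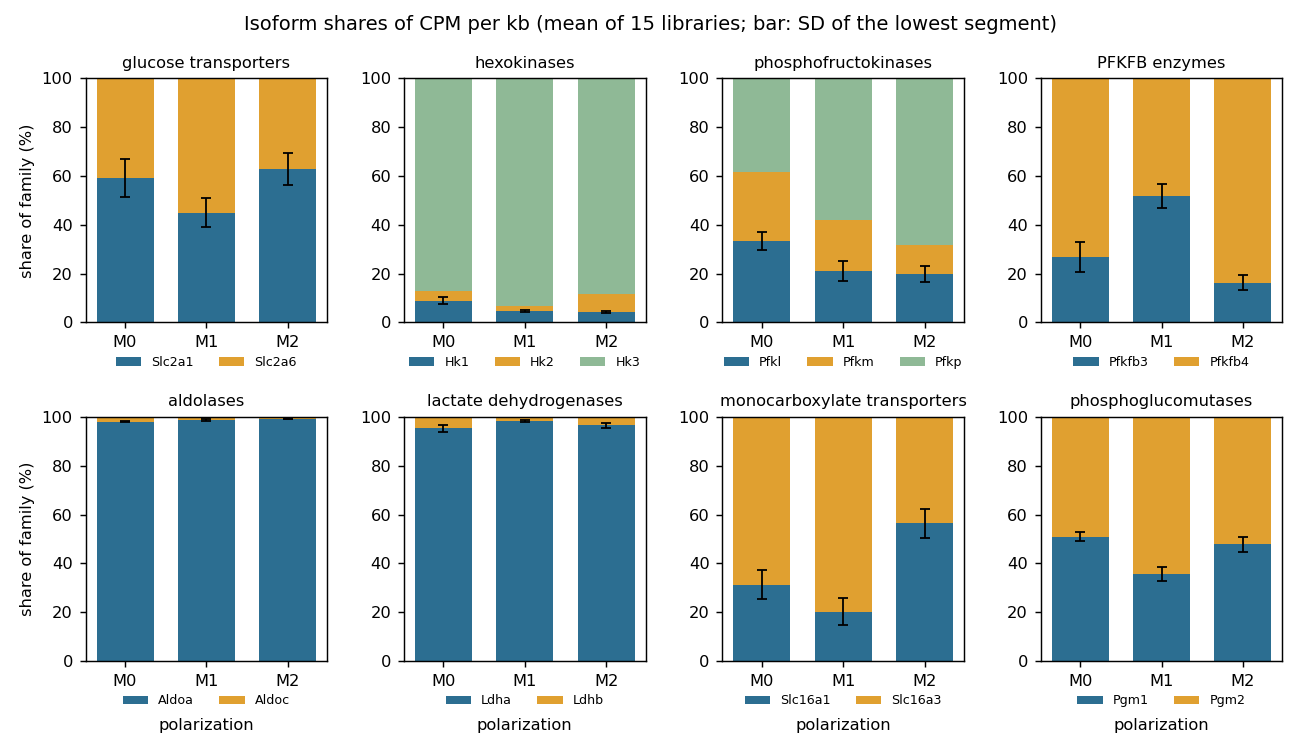
Mean share of each isoenzyme or transporter gene among the list's members of its family, as a percentage of their summed CPM per kb of annotated exon. Means are over 15 libraries of each polarization, with the SD of the lowest segment as a bar. Relatives outside the list, such as *Slc2a3* and *Slc16a7*, do not enter the shares. *Pfkp* takes a larger part of its family in M1 and M2, *Pfkfb3* the larger part of its pair in M1, and *Slc16a1* over 50% of its pair in M2.

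Aldolase splits fructose 1,6-bisphosphate. *Aldoa* carried nearly all of it. *Aldoa* had a lowest, median and highest level of 717, 804 and 979 CPM in the 15 M0 libraries, 1032, 1270.0 and 1592 CPM in M1 and 922, 1079.7 and 1212 CPM in M2. All M1 libraries lay above M0, and the log2 fold change of *Aldoa* was 0.60 (adjusted p = 2.99e-13, SE 0.05) in M1 and 0.38 (adjusted p = 2.67e-08, SE 0.05) in M2. Its genotype means (p254I, p254V, p284R) were 779 ± 74.3, 835 ± 69.2 and 861 ± 87.6 CPM (SD, n = 5) in M0, 1173 ± 112, 1226 ± 101 and 1349.6 ± 248.8 CPM in M1 and 1066 ± 62.8, 1046 ± 79.0 and 1118 ± 71.3 CPM in M2. *Aldoc*, the isoenzyme known from brain, was the member that dropped by 2-fold or more in M2. *Aldoc* had a lowest, median and highest level of 13.2, 18.8 and 24.7 CPM in the 15 M0 libraries, 10.8, 16.2 and 28.9 CPM in M1 and 6.54, 8.88 and 10.2 CPM in M2. Every M2 library of *Aldoc* lay below all others, whereas M0 and M1 overlapped. *Aldoc* had a log2 fold change of -1.10 (adjusted p = 2.55e-13, SE 0.10) in M2 and -0.12 (adjusted p = 0.222, SE 0.09) in M1, which was not called. It averaged 16.9 ± 3.19, 18.9 ± 2.50 and 19.9 ± 3.76 CPM (SD, n = 5) in M0, 17.3 ± 3.81, 18.8 ± 5.98 and 15 ± 2.51 CPM in M1 and 9.0 ± 0.724, 8.68 ± 1.20 and 8.18 ± 1.26 CPM in M2 across the genotypes in the same order. Its share of the family was 1.96% ± 0.242 in M0, 1.24% ± 0.429 in M1 and 0.712% ± 0.103 in M2 (SD, n = 15, permutation p = 2e-05 and 2.48e-05 adjusted for both differences from M0). With the unshared runs of 1 coding transcript as the length, that of *Aldoc* was 0.520% in M0, 0.327% in M1 and 0.187% in M2.

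*Tpi1*, the triose phosphate isomerase gene, had 218, 234 and 281 CPM (lowest, median and highest) in M0, 352, 385 and 529.9 CPM in M1 and 235, 256 and 336 CPM in M2. Every M1 library stood above both other groups. *Tpi1* had a log2 fold change of 0.72 (adjusted p = 1.02e-14, SE 0.06) in M1 and 0.15 (adjusted p = 0.0193, SE 0.06) in M2.

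The next 4 enzymes are known for abundant transcripts in most cells, and the counts of *Gapdh*, *Pgk1* and *Pgam1* here were low. Their means were 118.8, 520.9 and 380.7 counts per library, against 3738.6 for *Eno1*. *Gapdh* had 1.87, 2.71 and 4.21 CPM in M0, 3.41, 5.33 and 7.17 CPM in M1 and 3.46, 4.95 and 7.57 CPM in M2, a mean of 0.673 CPM per kb in M0 beside 88.8 for *Tpi1* and 283 for *Aldoa*. Each 50-base run of the coding transcript of every member, the length of the reads, was searched in transcripts of genes in GENCODE vM21. Other members, and genes that overlap with a member's place in the genome, were left out of the search. Runs shared between isoenzymes of the list were therefore not looked for. For *Gapdh*, 90.4% of runs occurred exactly in another gene's transcript and 384 other genes, 331 of them pseudogenes, shared a run within 2 mismatches. *Eno1* shared 72.2% of its runs exactly, *Pgk1* 68.0% and *Pgam1* 41.5%. *Pkm* shared 30.5%, *Ldhb* 27.0%, *Gpi1* 19.6%, *Ldha* 16.6% and *Aldoa* 13.5%, while *Hk1*, *Hk2*, *Hk3*, *Pfkm*, *Pfkp* and both *Slc2a* genes shared 0%. To show what such a read looks like, the coding run of *Gapdh* that most other genes hold (bases 493 to 542 of the coding sequence, found exactly in 84 other genes) and that of *Eno1* (bases 445 to 494, found exactly in 5 other genes) are given.
Gapdh: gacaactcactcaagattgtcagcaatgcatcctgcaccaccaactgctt
Eno1: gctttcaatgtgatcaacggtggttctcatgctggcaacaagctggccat
How the counting treated reads with several places is not stated, and the part of shared runs in the low counts was not tested. Levels of these members were not compared with those of other genes further.

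**Figure D4:**
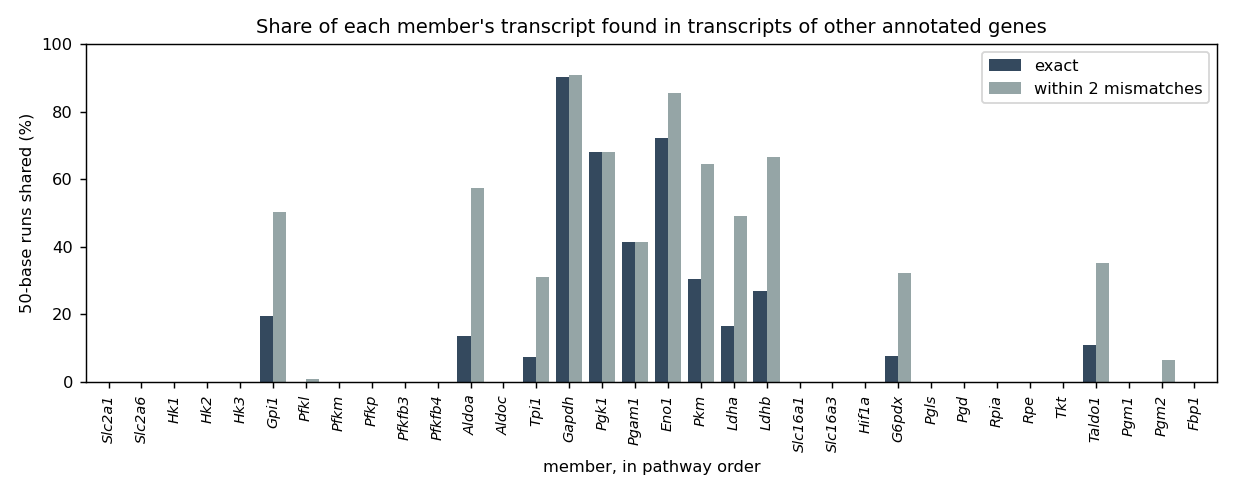
Percentage of 50-base runs in each member's coding transcript that occur in annotated transcripts of the genes searched outside the list, in pathway order. Dark bars give exact matches and light bars matches within 2 mismatches. Runs shared between members were not looked for. *Gapdh*, *Eno1* and *Pgk1* share over 60% of runs exactly, and most hexokinase, phosphofructokinase and transporter genes share 0%.

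With that limit, their fold changes were as follows. *Gapdh*, which makes 1,3-bisphosphoglycerate and NADH, had a log2 fold change of 0.90 (adjusted p = 2.62e-09, SE 0.11) in M1 and 0.86 (adjusted p = 9.95e-09, SE 0.11) in M2. *Pgk1*, the first step that yields ATP, had 8.92, 11.8 and 18.8 CPM (lowest, median and highest) in M0, 17.1, 21.2 and 31.9 CPM in M1 and 19.1, 21.0 and 28.5 CPM in M2, with log2 fold changes of 0.79 (adjusted p = 3.75e-10, SE 0.09) and 0.84 (adjusted p = 8.72e-11, SE 0.09). *Gapdh* and *Pgk1* were higher in all 15 mice in both polarized states, and their M1 and M0 ranges overlapped. *Pgam1*, the phosphoglycerate mutase gene, had 8.17, 11.5 and 14.6 CPM in M0, 11.9, 13.3 and 16.6 CPM in M1 and 14.2, 16.4 and 21.0 CPM in M2. It changed by 0.27 (adjusted p = 2.21e-04, SE 0.06) in M1 and 0.56 (adjusted p = 2.25e-10, SE 0.06) in M2 on the log2 scale, and its M0 libraries overlapped with both. *Eno1*, the enolase gene, had 70.6, 87.6 and 115 CPM in M0, 119, 143 and 195 CPM in M1 and 136, 168 and 218 CPM in M2. No polarized library overlapped with M0 for *Eno1*, whose log2 fold change was 0.68 (adjusted p = 3.13e-11, SE 0.07) in M1 and 0.93 (adjusted p = 6.54e-15, SE 0.07) in M2. Its copy *Eno1b* shared 1395 of the 1978 runs exactly and had a mean of 0.6 counts per library against 3739 for *Eno1*.

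Pyruvate kinase, which ends glycolysis proper, is encoded by *Pkm*, and counts per gene do not separate its splice forms. The 15 M0 libraries had 773, 848 and 1058 CPM of *Pkm* (lowest, median and highest), those of M1 1225, 1336 and 1684 CPM and those of M2 1059, 1248 and 1747 CPM. M0 did not overlap with M1 or M2. *Pkm* had a log2 fold change of 0.63 (adjusted p = 1.14e-11, SE 0.06) in M1 and 0.55 (adjusted p = 4.79e-10, SE 0.06) in M2, and M1 and M2 did not differ by the test (0.08, adjusted p = 0.25, SE 0.06).

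Lactate dehydrogenase subunits diverged. *Ldha*, whose subunit favours making lactate, rose in both states. *Ldha* had a lowest, median and highest level of 337, 413 and 462 CPM in the 15 M0 libraries, 495, 543 and 655 CPM in M1 and 591, 657 and 838 CPM in M2. Neither polarized group overlapped with M0. *Ldha* had a log2 fold change of 0.45 (adjusted p = 4.31e-10, SE 0.05) in M1 and 0.76 (adjusted p = 3.18e-16, SE 0.05) in M2, and M1 against M2 gave -0.31 (adjusted p = 1.59e-06, SE 0.05). *Ldhb*, the heart-type subunit, was the only member lower by 2-fold or more in M1. *Ldhb* had a lowest, median and highest level of 4.54, 8.98 and 14.4 CPM in the 15 M0 libraries, 2.33, 4.38 and 5.26 CPM in M1 and 4.61, 12.2 and 17.4 CPM in M2. In all 15 mice its M1 level was under the M0 and the M2 level, and the M1 and M0 ranges overlapped. *Ldhb* had a log2 fold change of -1.12 (adjusted p = 3.12e-08, SE 0.16) in M1 and 0.28 (adjusted p = 0.0901, SE 0.15) in M2, which was not called. Genotype means of *Ldha* (p254I, p254V, p284R) were 401 ± 48.3, 402 ± 43.8 and 411 ± 16.9 CPM (SD, n = 5) in M0, 531 ± 42.3, 550.4 ± 31.3 and 580.2 ± 68.2 CPM in M1 and 702 ± 104, 654 ± 41.3 and 699 ± 80.3 CPM in M2, and those of *Ldhb* were 8.50 ± 3.16, 9.82 ± 3.43 and 9.87 ± 3.20, then 4.80 ± 0.374, 4.20 ± 0.492 and 3.93 ± 1.11 and then 9.90 ± 3.28, 12.4 ± 1.64 and 12 ± 4.39 CPM. The share of *Ldhb* was 4.67% ± 1.47 in M0, 1.63% ± 0.361 in M1 and 3.45% ± 1.11 in M2 (SD, n = 15). That is a difference of -3.03 points in M1 (permutation p = 2e-05, adjusted 2.48e-05) and -1.22 points in M2 (permutation p = 0.0174, adjusted 0.0184).

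Lactate leaves the cell through monocarboxylate transporters, and the 2 genes on the list rose in different states. *Slc16a1* (MCT1, ENSMUSG00000032902, chr3:104638668-104658462 on the plus strand, mm10) rose in M2. Levels of *Slc16a1* (lowest, median and highest) were 10.0, 16.1 and 19.3 CPM in M0, 12.2, 15.8 and 21.0 CPM in M1 and 17.8, 35.1 and 45.2 CPM in M2. M2 was above M0 and M1 in all 15 mice, with 1 low M2 library, *Famin* p254I replicate 4, inside the ranges of both M0 and M1 libraries. *Slc16a1* had a log2 fold change of 1.20 (adjusted p = 5.23e-15, SE 0.09) in M2 and 0.07 (adjusted p = 0.48, SE 0.09) in M1, which was not called. *Slc16a3* (MCT4), the transporter known for lactate export, rose in M1. *Slc16a3* had a lowest, median and highest level of 31.4, 43.0 and 50.6 CPM in the 15 M0 libraries, 50.5, 74.0 and 135 CPM in M1 and 25.4, 31.7 and 44.4 CPM in M2. In all 15 mice it was higher in M1 than in M0 and M2, and the M1 range lay wholly above M2. *Slc16a3* had a log2 fold change of 0.98 (adjusted p = 1.04e-10, SE 0.11) in M1 and -0.33 (adjusted p = 0.00525, SE 0.11) in M2.

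By genotype (p254I, p254V, p284R), *Slc16a1* had 14.8 ± 3.62, 15.6 ± 1.89 and 15.3 ± 2.57 CPM (SD, n = 5) in M0, 15.9 ± 1.30, 15.8 ± 1.46 and 16.3 ± 3.14 CPM in M1 and 32.6 ± 8.92, 38.3 ± 5.25 and 34.4 ± 3.58 CPM in M2. *Slc16a3* had 40.0 ± 5.05, 41.4 ± 6.98 and 40.7 ± 8.04 CPM in M0, 70.5 ± 8.73, 76.6 ± 12.1 and 95.7 ± 36.8 CPM in M1 and 32.4 ± 7.48, 29.5 ± 2.51 and 35.2 ± 6.79 CPM in M2. The pair summed to 11.1 ± 1.08 CPM per kb in M0, 18.8 ± 4.34 in M1 and 14 ± 2.04 in M2 (SD, n = 15), of which *Slc16a3* held 68.7% ± 6.00 in M0, 79.8% ± 5.62 in M1 and 43.6% ± 5.87 in M2. Its share rose by 11 points in M1 and fell by 25.2 points in M2 (permutation p = 2e-05, adjusted 2.48e-05 for both).

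*Hif1a* encodes the subunit of HIF-1 that is broken down when oxygen is present. *Hif1a* had a lowest, median and highest level of 111, 126 and 157 CPM in the 15 M0 libraries, 326, 376 and 487 CPM in M1 and 113, 139 and 182 CPM in M2. Every M1 library lay above every other library. *Hif1a* had a log2 fold change of 1.59 (adjusted p = 3.29e-23, SE 0.07) in M1 and 0.16 (adjusted p = 0.0356, SE 0.07) in M2, and the small M2 call was lost under 5 of the alternatives tried. The genotype means of *Hif1a* (p254I, p254V, p284R) were 129.8 ± 16.5, 129.6 ± 15.5 and 127 ± 12.3 CPM (SD, n = 5) in M0, 376 ± 18.0, 371 ± 7.01 and 416 ± 59.0 CPM in M1 and 143 ± 22.8, 143 ± 28.8 and 145 ± 24.7 CPM in M2. Of 7 other genes of oxygen sensing, 1 was called higher and 4 lower in M1, and 1 higher and 2 lower in M2, where 37.0% and 40.3% of all genes were called in M1 and 36.8% and 39.6% in M2. *Epas1*, the HIF-2α gene, had a log2 fold change of -3.43 (SE 0.22) in M1 and 0.17 (SE 0.17) in M2, the latter not called, and *Egln3*, a prolyl hydroxylase gene induced by HIF, -2.03 (SE 0.26) and -1.95 (SE 0.25). *Vhl*, whose product marks HIF for breakdown, had 0.34 (SE 0.06) and 0.66 (SE 0.06).

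Of 15 tested HIF targets outside glycolysis, 6 were called higher and 6 lower in M1 and 7 higher and 6 lower in M2, beside the same shares of all genes (37.0% and 40.3% in M1, 36.8% and 39.6% in M2). Their median log2 fold change was 0.17 in M1 and -0.09 in M2. *Ndrg1* changed by -2.81 (SE 0.12) in M1 and -1.84 (SE 0.12) in M2, *Mxi1*, a MYC antagonist gene, by -1.63 (SE 0.06) and -0.61 (SE 0.06), and the mitophagy receptor gene *Bnip3l* by -1.23 (SE 0.06) in M1, all lower where called. *Higd1a*, a mitochondrial protein gene, rose in M1 by 1.10 (SE 0.06). *Ankrd37* had -1.51 (SE 0.18) in M1 and 0.98 (SE 0.17) in M2, and *P4ha2*, a collagen hydroxylase gene, -0.67 (SE 0.11) and -1.34 (SE 0.11).

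In the oxidative arm of the pentose phosphate pathway, no member changed by 2-fold or more. *G6pdx*, the gene of its first and controlling enzyme, had 295, 339.6 and 399 CPM (lowest, median and highest) in M0, 347, 411 and 491 CPM in M1 and 263, 299 and 329.8 CPM in M2. M1 lay wholly above M2, with M0 between and overlapping with both. *G6pdx* had a log2 fold change of 0.27 (adjusted p = 5.51e-07, SE 0.04) in M1 and -0.21 (adjusted p = 4.44e-05, SE 0.04) in M2. *Pgls*, the lactonase gene, had 59.7, 66.7 and 73.6 CPM in M0, 65.3, 72.4 and 77.5 CPM in M1 and 74.4, 79.9 and 90.5 CPM in M2, with log2 fold changes of 0.11 (adjusted p = 0.00173, SE 0.03) and 0.27 (adjusted p = 3.15e-10, SE 0.03). *Pgd*, which makes the second NADPH and ribulose 5-phosphate, fell in M1 and rose in M2. Levels of *Pgd* (lowest, median and highest) were 488, 636 and 759 CPM in M0, 454, 514 and 691 CPM in M1 and 638, 735 and 879 CPM in M2. It was lower in M1 than in M0 in all 15 mice, though the ranges overlapped, and the log2 fold change of *Pgd* was -0.27 (adjusted p = 1.16e-05, SE 0.05) in M1 and 0.21 (adjusted p = 2.92e-04, SE 0.05) in M2.

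In the non-oxidative arm, the transketolase gene *Tkt* stood out in M2. *Tkt* had a lowest, median and highest level of 375, 410.2 and 448 CPM in the 15 M0 libraries, 391, 439 and 522 CPM in M1 and 705, 797 and 1001 CPM in M2. All M2 libraries lay above M0 and M1, and the log2 fold change of *Tkt* was 0.99 (adjusted p = 2.09e-21, SE 0.05) in M2 and 0.11 (adjusted p = 0.0266, SE 0.05) in M1. The isomerase gene *Rpia* had 11.7, 13.5 and 17.7 CPM in M0, 10.9, 15.2 and 17.4 CPM in M1 and 19.1, 21.3 and 22.8 CPM in M2. It rose only in M2 by the test (0.61, adjusted p = 9.21e-12, SE 0.06) and had 0.08 (adjusted p = 0.22, SE 0.06) in M1, and it differed between M1 and M2 (-0.52, adjusted p = 2.58e-10, SE 0.06). The epimerase gene *Rpe* had 27.1, 35.1 and 37.5 CPM in M0, 33.2, 47.0 and 51.3 CPM in M1 and 44.9, 48.7 and 60.5 CPM in M2, with log2 fold changes of 0.44 (adjusted p = 8.09e-10, SE 0.05) and 0.57 (adjusted p = 1.31e-12, SE 0.05). *Taldo1*, the transaldolase gene, was the member called lower in both states. *Taldo1* had a lowest, median and highest level of 290.1, 377 and 466 CPM in the 15 M0 libraries, 269, 321 and 341 CPM in M1 and 277, 336 and 373 CPM in M2. It was lower in 15 of 15 mice in each state, with overlapping ranges and log2 fold changes of -0.32 (adjusted p = 3.20e-07, SE 0.05) in M1 and -0.22 (adjusted p = 1.56e-04, SE 0.05) in M2.

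Phosphoglucomutase activity links glucose 6-phosphate with glycogen, and the part of each of the 2 genes listed in that activity was not tested. The CPM table gives the symbols *Pgm1* to ENSMUSG00000029171 on chromosome 5 and *Pgm2* to ENSMUSG00000025791 on chromosome 4, the reverse of GENCODE vM21, and the table's names are used here. *Pgm2* rose in M1. Levels of *Pgm2* (lowest, median and highest) were 34.4, 36.4 and 41.5 CPM in M0, 60.0, 70.9 and 82.1 CPM in M1 and 37.2, 45.1 and 52.3 CPM in M2. Its M1 libraries lay above all others, and its log2 fold change was 0.93 (adjusted p = 5.55e-23, SE 0.04) in M1 and 0.30 (adjusted p = 3.42e-08, SE 0.04) in M2. *Pgm1* had 31.4, 34.1 and 36.1 CPM in M0, 29.7, 35.0 and 39.5 CPM in M1 and 33.5, 37.1 and 39.6 CPM in M2, with log2 fold changes of 0.02 (adjusted p = 0.523, SE 0.03) and 0.10 (adjusted p = 0.00448, SE 0.03). *Pgm2* held 49.0% ± 1.76 in M0, 64.2% ± 2.83 in M1 and 52.2% ± 3.26 in M2 of the pair per kb (SD, n = 15), a rise of 15.3 points in M1 (permutation p = 2e-05, adjusted 2.48e-05). Genotype means of *Pgm2* (p254I, p254V, p284R) were 37.0 ± 1.27, 37.0 ± 2.69 and 36.8 ± 1.53 CPM (SD, n = 5) in M0, 67.1 ± 6.51, 68.7 ± 3.22 and 75.6 ± 5.53 CPM in M1 and 45.4 ± 6.78, 45.3 ± 2.35 and 45.2 ± 2.88 CPM in M2. *Fbp1*, the gluconeogenic fructose bisphosphatase gene, had a mean of 1.7 counts per library and at most 0.300 CPM, and was not tested.

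Other genes of the same routes were called in both directions. Of 41 further genes listed, 31 were tested, and 14 were called higher and 13 lower in M1 and 11 higher and 11 lower in M2. Among all genes 37.0% were called higher and 40.3% lower in M1, and 36.8% and 39.6% in M2. Their median log2 fold change was 0.03 in M1 and 0.002 in M2. The fructose transporter gene *Slc2a5* rose in M1 (1.97, SE 0.32), and the insulin-responsive glucose transporter gene *Slc2a4* in M2 (2.82, SE 0.35). *Slc2a3*, the GLUT3 gene, was lower in both, with log2 fold changes of -0.83 (SE 0.12) and -1.65 (SE 0.13). *Eno2*, the neuronal enolase gene, was lower in M1 (-2.31, SE 0.15), as were *Pgm5* (-1.96, SE 0.26) and the glycerol 3-phosphate dehydrogenase gene *Gpd1* (-1.64, SE 0.25).

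Between genotypes, 1 member was called in 1 polarization and 0 on average. Averaged over M0, M1 and M2, 0 members were called in *Famin* p284R and 0 in p254V against p254I, where 0.0155% of all genes were called in either by edgeR. Unadjusted, 5 of the 33 members tested had a p under 0.05 for p284R and 0 for p254V. Of all 12905 genes tested, 565 and 323 had such a p. DESeq2 and limma-voom also called 0 members in both. Within M0 and within M2, 0 members were called for either variant, and within M1 0 for p254V. The background within these was 0% of genes in each but p284R in M2, with 0.00775%. Unadjusted, the members with a p under 0.05 numbered 2 for p284R in M0, 0 in M2, and 1, 0 and 0 for p254V in M0, M1 and M2. In the same order, 140, 148, 231, 120 and 329 of the 12905 genes tested had such a p.

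Within M1, 1 member was called in *Famin* p284R against p254I, *Slc2a6*, where 0.263% of all genes were called. Unadjusted, 9 of the 33 members tested had a p under 0.05, as did 864 of all 12905 genes tested. *Slc2a6*, the GLUT6 gene, had 73.2, 70.4, 86.6, 48.0 and 67.6 CPM in M1 replicates 1 to 5 of p254I, 72.6, 76.9, 93.2, 74.8 and 76.0 CPM in p254V and 74.8, 71.9, 183, 132 and 169.7 CPM in p284R. Replicates 3, 4 and 5 of p284R lay above every other M1 library, and replicates 1 and 2 lay inside the p254I range. Those 3 p284R libraries were also the highest of M1 for *Slc2a1*, *Pfkl*, *Aldoa*, *Tpi1*, *Pgk1*, *Pgam1*, *Slc16a3*, *Hif1a* and *Pgd*. The libraries were picked by their *Slc2a6* level. How many of all genes share that pattern was not counted, so it is not read as particular to the members. *Slc2a6* had a log2 fold change of 0.87 (adjusted p = 0.0361, SE 0.20) by edgeR, adjusted over all genes by Benjamini-Hochberg. On log2(CPM + 1), the exact two-sided permutation test of 5 mice against 5 gave p = 0.0556. That test did not pair same-numbered mice across genotypes. The call held in 6 of 10 settings tried besides leaving out mice, the main edgeR fit included. Among them was a block for the replicate number, with an adjusted p of 0.00759 by edgeR. The call also held in 3 of the 15 fits without 1 mouse (p284R replicates 1 and 2 and p254I replicate 3). Without any 1 of the other 12 mice the adjusted p lay between 0.05001 and 0.3, the highest without p284R replicate 3, and with limma-voom it was 0.101. Fitted on only the libraries compared it was 0.809, the highest of the settings tried (edgeR, all adjusted over all genes by Benjamini-Hochberg).

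The same 3 libraries stood apart in markers of M1 activation. *Cxcl10*, an interferon-induced chemokine gene, had 343, 445, 1220.0, 981 and 1163 CPM in M1 replicates 1 to 5 of p284R and 309, 325, 475, 359 and 316 CPM in p254I. *Nos2*, the inducible nitric oxide synthase gene, had 25.6, 8.6, 81.5, 149 and 131 CPM and 19.0, 3.01, 26, 18.4 and 19.7 CPM in the same order. Replicates 3, 4 and 5 of p284R were above all p254I libraries in both genes, and the part this plays in the *Slc2a6* result was not tested. *Lacc1* itself had 396, 263, 218, 584 and 553 CPM in M1 replicates 1 to 5 of p284R and 501, 490.2, 509, 486 and 523 CPM in p254I, so that replicates 1 to 3 lay below and 4 and 5 above the p254I libraries. In M0, *Slc2a6* averaged 25.3 ± 5.90, 25.4 ± 3.8 and 27.0 ± 6.74 CPM (SD, n = 5) in p254I, p254V and p284R, and in M2 47.4 ± 10.8, 51.9 ± 7.38 and 53.4 ± 6.50 CPM.

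**Figure D5:**
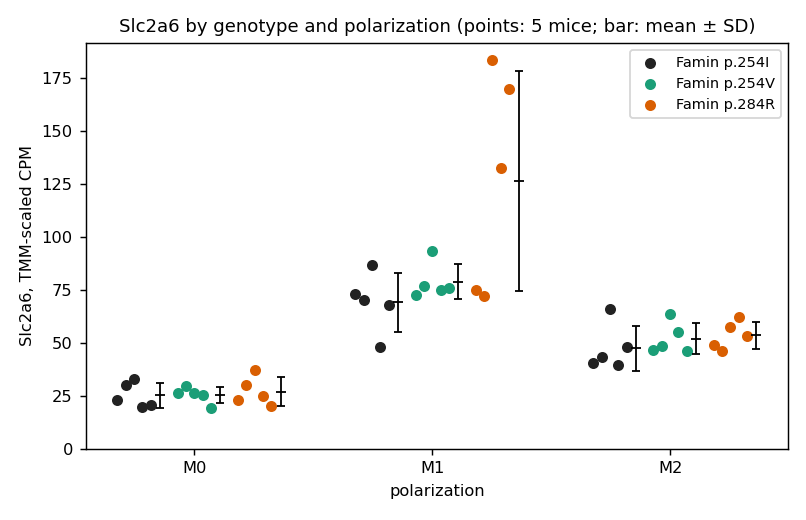
*Slc2a6* in TMM-scaled CPM by polarization and *Famin* genotype, with a point for each of 5 mice and the mean ± SD beside them. In M1, 3 of the 5 p284R libraries lie between 132 and 183 CPM and the other 2 within the p254I range, and in M0 and M2 the genotypes overlap.

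Interaction terms asked whether genotype differences depended on polarization, and 0 members were called in any of the 4 contrasts, as were 0% of all genes. Unadjusted, 1 member had a p under 0.05 for p284R in M1 minus M0 and 0 did in the other 3 contrasts. Of the 12905 genes tested, 356 had such a p for p284R in M1 minus M0 and 70 in M2 minus M0. For p254V, 111 and 167 genes did in the same order. The p284R difference of *Slc2a6* in M1 exceeded that in M0 by a log2 value of 0.77 (SE 0.28, adjusted p = 1, edgeR, Benjamini-Hochberg). No isoform share differed between genotypes after adjustment (0 of 36 tests, exact permutation of 5 mice against 5, where the smallest possible p is 0.0079). These tests did not pair same-numbered mice across genotypes, and no paired test of the shares between genotypes was run. The smallest p belonged to the share of *Pfkm*, a mean of 21.1% in p254I and 19.3% in p284R over M0, M1 and M2 (exact permutation p = 0.00794, adjusted 0.286).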

How the data were processed

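Stranded mRNA libraries of 45 macrophage cultures were read as single 50-base reads. Per the labels, the authors used FastQC, Trim Galore, HISAT2 and limma with mm10, while the series text names Cutadapt and STAR. The counting tool and its treatment of strand and of reads with several places are not given in the sources used here. The deposited count table held raw counts of 29307 genes, and the authors' CPM table held 11900 genes as CPM. The CPM values gave back whole reads within 0.01 for 100.0% of values.

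Counts were tested with edgeR 4.0.16 (R 4.3.3) by TMM, filterByExpr over 9 groups and the robust quasi-likelihood test, with Benjamini-Hochberg adjustment over 12905 genes at 0.05. TMM factors were 0.939 to 1.10. The procedure was tested on simulated data. limma 3.58.1 (voom) and DESeq2 1.42.0 were alternatives, as were other scalings and filters, blocks for replicate number or mouse, and leaving out each mouse. The reads recovered from the CPM table and shares per unshared run of 1 coding transcript were 2 more, added after the data were seen. Isoform shares were CPM per kb of annotated exon in GENCODE vM21, tested by permutation (SciPy 1.17.1). Only members of the list entered a share, and tested relatives such as *Slc2a3*, *Slc16a7*, *Pfkfb2* and *Pgm2l1* were left out. Runs of 50 bases were matched with bwa 0.7.19. Total counts per library were 17239009 to 43740283, and counting error is only part of the spread between mice that the tests use.

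The members and the other gene lists were chosen with earlier results of these data known. Every member was given a level and its fold changes. Full values by group were given for members called at 2-fold or more (at most 12), for the leading member of each isoform family and for members called between genotypes. Of each other list, at most 6 called genes with the largest change were named. Same-numbered cultures of 1 genotype were taken as 1 mouse from the labels, and their deviations from group means correlated above 0.1 in 13 of 15 pairs for M0 and M1, 15 for M0 and M2 and 10 for M1 and M2. Between genotypes, same-numbered cultures did so in 15 of 15 pairs within M0, 15 within M1 and 13 within M2.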

Additional observations from a re-analysis of the deposited data

Results flagged for a closer look

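Among 108 groups of 5 libraries (the 12 members with full values in 9 groups), 5 held a library whose gap to its nearest neighbour took more than 0.71 of the group's range (Dixon's test), and chance alone sets apart about 1 in 20 groups. In M1 of *Famin* p254V, replicate 3 had the highest *Slc2a6* with 93.2 CPM, and replicate 2 the lowest *Hk2* with 58.9 CPM. In M0 of p254V, replicate 2 had the lowest *Hk1* with 105.6 CPM. In M2, p254V replicate 1 had the highest *Hk2* with 111.5 CPM, and p284R replicate 2 the highest *Hk3* with 888 CPM.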

How the results depend on the processing

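Across settings other than leaving out a mouse, 28 to 30 members were called in M1 against M0, 30 to 32 in M2 against M0 and 27 to 29 in M1 against M2. Without 1 mouse at a time the counts were 29 to 30, 29 to 32 and 26 to 29, and at 2-fold or more 8 to 10, 5 to 6 and 8 to 9. With the replicate block 29, 32 and 29 members were called, and the mouse as a block gave the same counts. The block gave 1 member for p284R within polarizations (*Slc2a6*, adjusted p 0.00759 by edgeR's quasi-likelihood test), and it changed no other genotype count. In that comparison 0 members were called by limma-voom alone or with a random effect of the mouse, without the low-count filter and with only the libraries compared, and 0 to 1 without 1 mouse. The cause was not tested. On average over polarizations, p284R had 0 to 1 called members without 1 mouse, the 1 being *Pgd* without p254I replicate 3 (log2 fold change 0.25, adjusted p 0.0451, edgeR). For p254V and for the interactions 0 members were called in every setting. Of isoform shares, 34 of 36 differed under every setting tried, and 0 of 36 between genotypes, where no block was fitted. In a family with only 1 other gene the shares mirror each other, so that both give the same p and both are counted among the 36. No result reversed. Called members that lost their call in some settings were *Hif1a* and *Tpi1* in M2, *Tkt* in M1 and *Slc2a1*, *Pgm1* and *Rpe* in M1 against M2. *Ldhb* in M2, *Rpia* in M1 and *Taldo1* in M1 against M2 gained one, and without the low-count filter *Fbp1*, otherwise not tested, was called lower in M1 against either other state. Depth was lowest for *Gapdh*, with a mean of 118.8 counts per library, and *Ldhb*, with 230.7, among the members tested.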
